A study of Mus musculus with 6 samples.

Results

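The stefins and cystatins are a family of small proteins that block papain-like cysteine proteases, chiefly the lysosomal cathepsins. Stefins act inside the cell and carry no signal peptide, whereas cystatin C is secreted. In the mouse the gene for stefin A has multiplied into a cluster of close paralogs, and stefin A transcripts are known from neutrophils and other myeloid cells. Stefin B (Cstb) is found in nearly every cell, and cystatin C (Cst3) is abundant in macrophages and dendritic cells. Here 8 genes were followed, namely the stefin A paralogs Stfa1, Stfa2, Stfa2l1, Stfa3, BC100530 and BC117090, together with Cstb and Cst3. They were found by the gene name that the array files give each probe, which returned 9 probes, of 56605 non-control probes on the array. Every gene had 1 probe except Cst3, which had 2 probes. BC100530 and BC117090 are called Cstdc5 and Cstdc6 in the current RefSeq annotation.

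The measurements came from 6 one-colour Agilent mouse expression arrays, with 2 arrays for each of 3 kinds of bone marrow culture. 6G- BM-MDSC were myeloid-derived suppressor cells, that is, myeloid cells able to restrain T cells, grown from bone marrow from which cells bearing the neutrophil surface protein Ly-6G had been removed with magnetic beads. MDSC (conv.) were grown in the same way from whole bone marrow, and both kinds received 40 ng/mL GM-CSF for 4 days. One label of the MDSC (conv.) samples also mentions dendritic cells, and whether it means a mixture is not given in the sources used here. DCs were bone marrow-derived dendritic cells kept for 8 days in 20 ng/mL GM-CSF. All marrow came from female C57BL/6J mice aged 6 to 8 weeks. DCs therefore differed from both MDSC cultures in dose, time and dish surface together. The labels do not say whether the 2 arrays of a group came from separate cultures or animals, so p-values cover only the spread between arrays, and part or all of that spread may be technical.

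Levels are given as log2 intensity relative to the 75th percentile of the same array, so that 0 is the 75th percentile and a difference of 1 is a 2-fold change. The 75th percentile was between 560.2 and 633.3 intensity units, and no spot was saturated. Between 55.6% and 59.9% of probes were well above background. Correlation between arrays was at least 0.9941 within each group. All arrays lay on 1 slide. Both MDSC groups occupied the same row of that slide and DCs the other row, so that position and the difference from DCs cannot be told apart. With 2 arrays a group, their number limits the precision. The cultures were mixtures, and 10 of 12 neutrophil markers passed the test as higher in MDSC (conv.) than in DCs, while 10 of 11 dendritic cell markers passed as lower. All 7 basophil and mast cell markers were also higher in each MDSC culture than in DCs. For 6G- BM-MDSC against DCs, 10 of 12 neutrophil markers were higher and 10 of 11 dendritic cell markers lower, and the remaining dendritic cell marker, Flt3, was higher by 0.50 (adjusted p = 0.0167). Ly6g itself, the neutrophil gene behind the depletion, differed by -0.17 between 6G- BM-MDSC and MDSC (conv.) (limma adjusted p = 0.627) after the 4 days of culture.

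The stefin A probes lie within 290.6 kb of mouse chromosome 16 (mm9). Because the paralogs are close in sequence, the probes were compared with each other before their values were read. The comparison was between probes only and did not include the transcripts of the paralogs. It therefore cannot show whether a probe also reads the transcript of another paralog, which was not tested. Calls of different stefin A probes below may thus not stand for separate genes. Each probe is written 5′ to 3′, and capitals mark the longest stretch shared within each of the 2 pairs described here. Among the stefin A probes of chromosome 16, members and others, the longest stretch shared by any pair was 25 bases, between BC100530 (chr16:36359525-36359584, minus strand) and 2010005H15Rik (chr16:36257452-36257511, plus strand), a stefin A gene now named Csta2. The next was 22 bases, between Stfa3 (chr16:36450693-36450752, minus strand) and Gm5483 (chr16:36188043-36188102, plus strand), now named Cstdc4. A 14-base stretch shared by BC100530 and Stfa3 is not marked. Only the first 30 bases are shown for 2010005H15Rik.
BC100530: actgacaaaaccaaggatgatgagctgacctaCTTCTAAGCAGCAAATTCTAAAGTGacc
2010005H15Rik: CTTCTAAGCAGCAAATTCTAAAGTGtcctg
Stfa3: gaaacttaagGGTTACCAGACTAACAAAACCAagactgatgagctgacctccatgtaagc
Gm5483: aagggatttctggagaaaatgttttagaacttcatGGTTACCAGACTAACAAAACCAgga

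Stfa1 and Stfa2 were read at the ends of their transcripts. The 30 bases up to and including the polyadenylation signal are shown, because they are alike at most bases and yet belong to paralogs with different test results below. Capitals mark the 6 bases at which they differ. The Stfa1 probe lies at chr16:36285398-36285457 on the plus strand and the Stfa2 probe at chr16:36404032-36404089 on the minus strand.
Stfa1: TcaGtgGaaagagatTcAgccatGaataaa
Stfa2: CcaTtgTaaagagatGcGgccatCaataaa

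The Stfa2l1 probe spans a splice junction (chr16:36160118-36161876, plus strand) and is annotated in the array files to transcripts of both Stfa2l1 and Stfa2. It can therefore read either gene, and its values cannot be assigned to Stfa2l1 alone. The probes of BC100530 and BC117090 differ in sequence, but the files list 1 shared cDNA record for both.
Stfa2l1: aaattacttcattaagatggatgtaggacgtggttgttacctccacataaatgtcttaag

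Next, the stefin A genes were compared between the cultures. In this paragraph and in those below, a test is limma's moderated test on all tested probes, with Benjamini-Hochberg adjustment and a threshold of 0.05. Stfa1, Stfa3 and BC100530 were lower in both MDSC cultures than in DCs. Stfa2 and Stfa2l1 passed the test in no comparison. BC117090 was not well above background on any array, with intensities between 3.686 and 15.256, and was not tested. Thus 5 of the 6 stefin A probes were tested, and 3 of these 5 were lower in each comparison with DCs and none was higher. Over all probes tested, the 6G- BM-MDSC comparison with DCs called 16.2% as lower and 15% as higher. The MDSC (conv.) comparison with DCs called 14.3% as lower and 13.4% as higher. In bulk samples, fewer cells of a type and less RNA per cell cannot be told apart.

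Stfa3 had the largest difference among the 8 tested probes. Its level was 1.52 and 1.58 in 6G- BM-MDSC, 1.52 and 1.54 in MDSC (conv.), and 2.75 and 2.69 in DCs. All 4 MDSC arrays were below both DC arrays, and the MDSC cultures overlapped each other. The difference from DCs was -1.17 (SE 0.08, adjusted p = 0.00103) for 6G- BM-MDSC and -1.19 (SE 0.08, adjusted p = 0.00101) for MDSC (conv.). DCs were 2.24-fold higher than 6G- BM-MDSC and 2.28-fold higher than MDSC (conv.).

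Stfa1, which encodes a cytosolic inhibitor of the stefin A group, was likewise lower in both MDSC cultures than in DCs. Its level was 3.58 and 3.42 in 6G- BM-MDSC, 3.78 and 3.55 in MDSC (conv.), and 4.44 and 4.45 in DCs. Again no MDSC array reached a DC array. The difference from DCs was -0.95 (SE 0.11, adjusted p = 0.00493) for 6G- BM-MDSC and -0.78 (SE 0.11, adjusted p = 0.00897) for MDSC (conv.).

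BC100530, predicted to encode a stefin A-like protein, was 4.86 and 4.89 in 6G- BM-MDSC, 5.03 and 4.98 in MDSC (conv.), and 5.65 and 5.63 in DCs. The groups did not overlap in either comparison with DCs. The difference was -0.76 (SE 0.07, adjusted p = 0.00274) for 6G- BM-MDSC and -0.63 (SE 0.07, adjusted p = 0.00487) for MDSC (conv.).

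Stfa2 was 4.20 and 4.51 in 6G- BM-MDSC, 4.51 and 4.58 in MDSC (conv.), and 4.32 and 4.14 in DCs. The arrays of 6G- BM-MDSC and DCs overlapped, and those of MDSC (conv.) lay above DCs. The difference was 0.12 for 6G- BM-MDSC against DCs (95% interval -0.22 to 0.46, adjusted p = 0.523) and 0.31 for MDSC (conv.) against DCs (95% interval -0.03 to 0.65, adjusted p = 0.149). The interval for 6G- BM-MDSC reached no lower than -0.22, whereas that of Stfa1 ended at -0.66 and that of Stfa3 at -0.97. The difference between genes was not itself tested.

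The Stfa2l1 probe was 4.26 and 4.41 in 6G- BM-MDSC, 4.46 and 4.46 in MDSC (conv.), and 4.29 and 4.13 in DCs, close to the pattern of Stfa2. It differed from DCs by 0.13 in 6G- BM-MDSC (95% interval -0.13 to 0.38, adjusted p = 0.378) and by 0.25 in MDSC (conv.) (adjusted p = 0.124). For MDSC (conv.) the adjusted p became 0.00917 after normexp background correction and 0.0499 with an intensity-dependent prior variance.

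**Figure D1:**
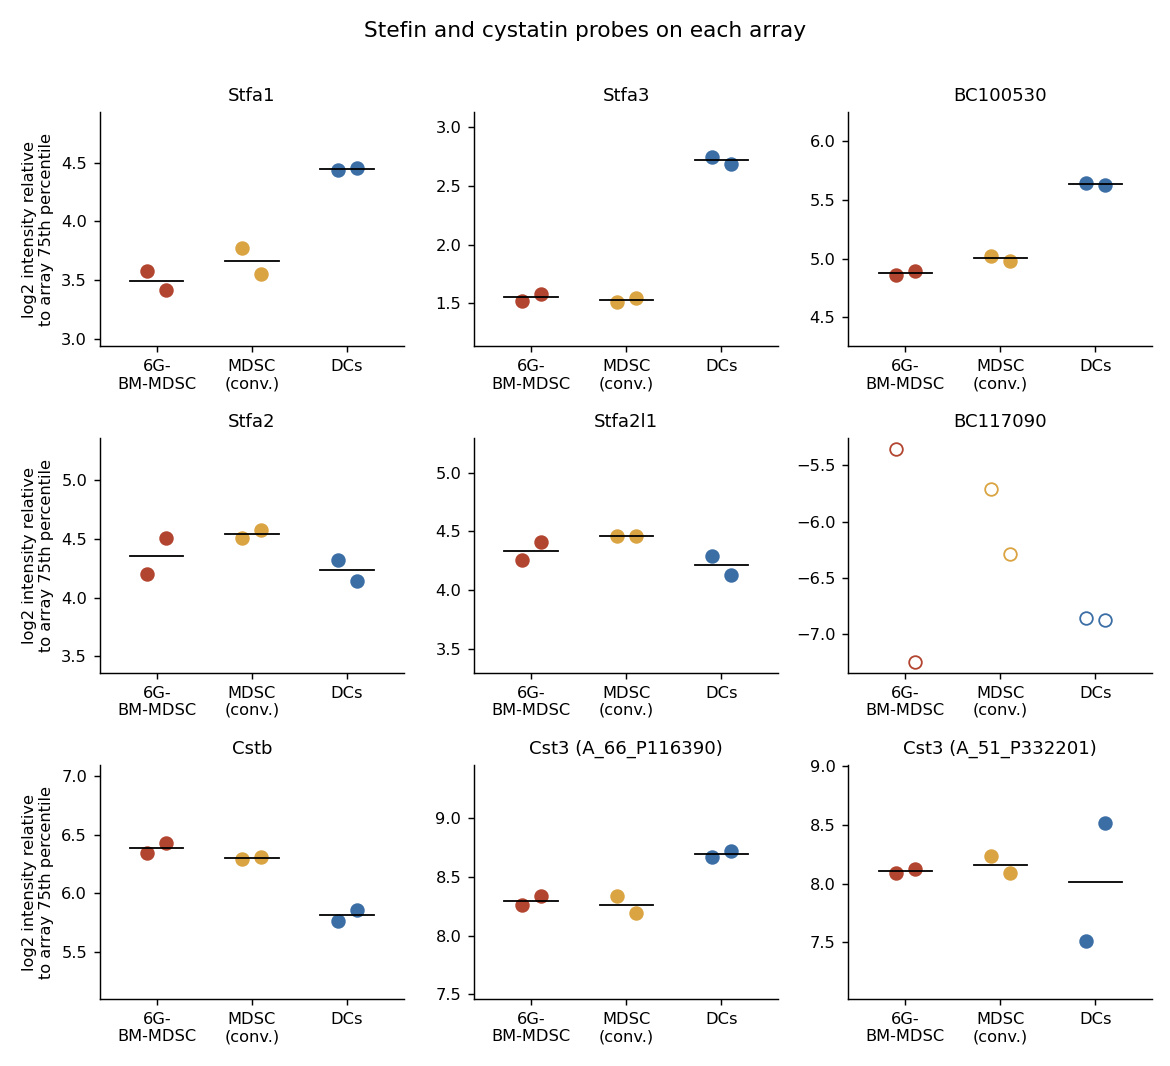
Log2 intensity relative to the 75th percentile of the array (y axis) for each of the 9 probes, with 1 point per array, a line at the group mean, and open points for spots not well above background. Each panel has its own y axis. Stfa1, Stfa3 and BC100530 sit lower in both MDSC cultures than in DCs, Cstb sits higher, and the 2 Cst3 probes differ in DCs.

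Between 6G- BM-MDSC and MDSC (conv.), none of the 8 tested member probes passed the test, and none reached an unadjusted p of 0.05 in limma (lowest 0.134). Student's t-test is listed in the study's general statistical methods, whereas its array methods state fold changes and gene set enrichment and no such test. Applied here to the arrays and called the methods' test, it takes the variance of each probe alone. It gave 1 of the 8 at an unadjusted p under 0.05, against 8.16% of all tested probes, and 0 after adjustment. Across all tested probes 0.00299% were called higher and 0.00597% lower in 6G- BM-MDSC. The differences of the stefin A members ran between -0.19 for Stfa2 and 0.02 for Stfa3. The intervals from limma cover only the spread between arrays, part or all of which may be technical. They may therefore not bound differences between cultures. The interval of BC100530 was -0.31 to 0.06, that of Stfa1 -0.45 to 0.12, and that of Stfa3 -0.17 to 0.22. The widest were those of the Cst3 probe A_51_P332201, at -0.89 to 0.78, and of Stfa2, at -0.53 to 0.15. For these probes the arrays could have missed larger differences. The arrays of the groups did not overlap for 4 of the 8 probes (Stfa2, Stfa2l1, BC100530 and Cstb), against 44.5% of all tested probes.

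Stefin B, encoded by Cstb on chromosome 10, moved in the opposite direction to Stfa1, Stfa3 and BC100530. Loss of this inhibitor in humans causes a progressive myoclonus epilepsy. Its level was 6.35 and 6.43 in 6G- BM-MDSC, 6.29 and 6.31 in MDSC (conv.), and 5.77 and 5.86 in DCs. Every MDSC array exceeded both DC arrays. Cstb was 1.49-fold higher in 6G- BM-MDSC than in DCs (log2 difference 0.58, SE 0.08, adjusted p = 0.00775) and 1.41-fold higher in MDSC (conv.) than in DCs (0.49, SE 0.08, adjusted p = 0.0128). The call for MDSC (conv.) rested on the full set of arrays, as its adjusted p was 0.0549 without MDSC (conv.) replicate 1, 0.0677 without MDSC (conv.) replicate 2 and 0.0617 without DCs replicate 1, with differences of 0.50, 0.48 and 0.45. The interval for 6G- BM-MDSC minus MDSC (conv.) was -0.12 to 0.29 (adjusted p = 0.738).

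Cystatin C, the secreted inhibitor encoded by Cst3 on chromosome 2, gave different answers from its 2 probes. The probe A_66_P116390 (chr2:148698574-148698633, minus strand) was 8.26 and 8.34 in 6G- BM-MDSC, 8.34 and 8.19 in MDSC (conv.), and 8.67 and 8.72 in DCs. By this probe both MDSC cultures lay below DCs, with a difference of -0.40 for 6G- BM-MDSC (SE 0.09, adjusted p = 0.0272) and of -0.44 for MDSC (conv.) (SE 0.09, adjusted p = 0.0236). The other probe, A_51_P332201 (chr2:148697681-148697740, minus strand), was 8.09 and 8.13 in 6G- BM-MDSC, 8.23 and 8.09 in MDSC (conv.), and 7.51 and 8.52 in DCs. Here the DC arrays lay on both sides of all MDSC arrays. The first probe is shown whole and the second by its first 30 bases, since they read separate stretches of 1 transcript.
Cst3 (A_66_P116390): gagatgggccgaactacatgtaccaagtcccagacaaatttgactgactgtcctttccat
Cst3 (A_51_P332201): aaaggcacacactccctgacaaaattcagc

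The probes disagreed most on DCs replicate 1. For A_51_P332201 the intensity in DCs was 111790 on replicate 1 and 207960 on replicate 2, whereas A_66_P116390 gave 250290 and 240130 on the same arrays. The pixel SD of the A_51_P332201 spot was 16.1% of its mean on DCs replicate 1, against 3.37% to 6.81% on the other 5 arrays, although the spot was not marked as an outlier. With all arrays the difference from DCs was 0.09 for 6G- BM-MDSC (SE 0.33, adjusted p = 0.845) and 0.15 for MDSC (conv.) (SE 0.33, adjusted p = 0.764). Without DCs replicate 1 it was -0.41 for 6G- BM-MDSC (adjusted p = 0.0876) and -0.36 for MDSC (conv.) (adjusted p = 0.121), close in size to the other probe. Without DCs replicate 2 it was 0.60 for 6G- BM-MDSC (adjusted p = 0.0415) and 0.65 for MDSC (conv.) (adjusted p = 0.0375).

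The call for A_66_P116390 was also near the threshold. For 6G- BM-MDSC against DCs the adjusted p was 0.102 and 0.0808 without 6G- BM-MDSC replicate 1 or 2, and 0.0855 and 0.108 without DCs replicate 1 or 2. Scaling to the array median gave -0.30 (adjusted p = 0.0567) and quantile normalization gave -0.23 (adjusted p = 0.0669). For MDSC (conv.) against DCs it was 0.10 without MDSC (conv.) replicate 2, 0.0773 without DCs replicate 1 and 0.0993 without DCs replicate 2. The difference stayed below 0 in all of these.

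**Figure D2:**
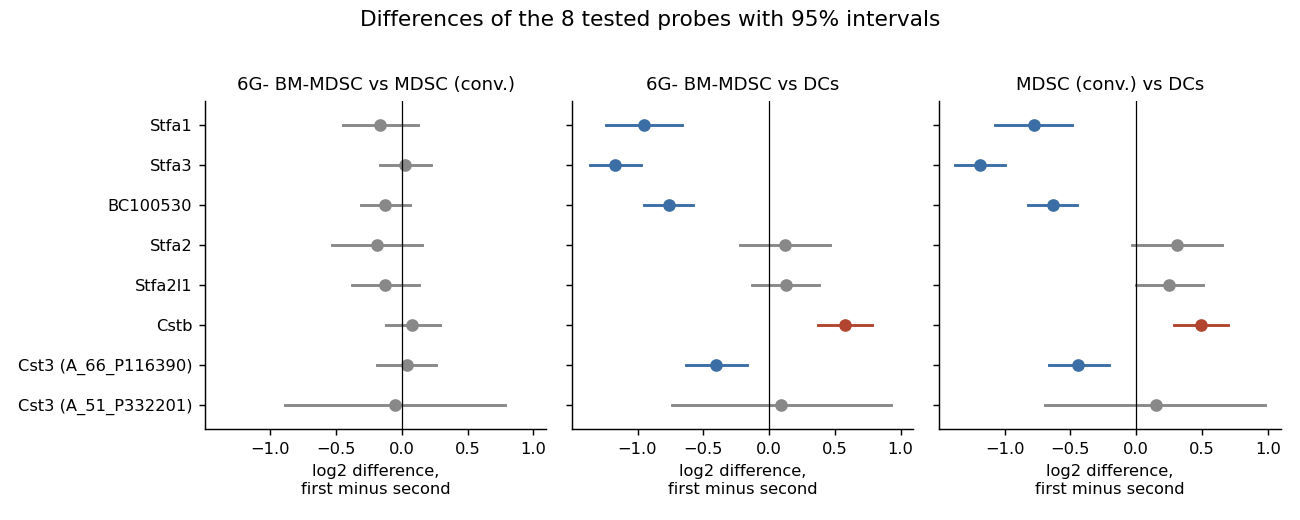
Log2 difference (x axis, first group minus second) of the 8 tested probes with 95% intervals from limma, in the 3 comparisons. Red marks probes higher and blue probes lower at an adjusted p under 0.05, and grey those that did not pass. No probe passed between 6G- BM-MDSC and MDSC (conv.), and 5 passed in each comparison with DCs.

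In all, 5 of the 8 tested member probes passed the test in each comparison with DCs, 1 as higher and 4 as lower. Among all tested probes, 15% were called higher and 16.2% lower for 6G- BM-MDSC, and 13.4% and 14.3% for MDSC (conv.). The 8 include both Cst3 probes, which disagreed. Only Stfa3 passed with a difference of at least 2-fold. The methods' test gave 5 of the 8 probes at an unadjusted p under 0.05 in each comparison, where 33.1% of all tested probes reached it for 6G- BM-MDSC against DCs and 30.9% for MDSC (conv.) against DCs, and it gave 0 members after adjustment. The comparisons share the DC arrays and are not independent.

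The promoters of the stefin A genes were read next, because members that moved alike and members that did not stand in 1 cluster. RefSeq (GRCm38.p6) gave a promoter for 6 of the 8 member genes. For the 5 stefin A members among them, the 100 bases before the annotated start are shown, and capitals mark the 2 longest words that all 5 hold near the start.
Stfa1 (chr16:36277048-36277147, plus strand): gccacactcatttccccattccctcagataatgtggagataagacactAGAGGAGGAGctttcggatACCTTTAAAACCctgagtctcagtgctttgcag
Stfa3 (chr16:36455393-36455492, minus strand): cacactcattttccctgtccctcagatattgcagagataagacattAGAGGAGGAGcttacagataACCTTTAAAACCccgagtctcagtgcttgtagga
BC100530 (chr16:36367571-36367670, minus strand): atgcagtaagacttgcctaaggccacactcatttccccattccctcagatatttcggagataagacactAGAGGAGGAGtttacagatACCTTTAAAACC
Stfa2 (chr16:36408364-36408463, minus strand): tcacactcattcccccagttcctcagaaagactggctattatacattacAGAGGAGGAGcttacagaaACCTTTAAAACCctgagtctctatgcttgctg
Stfa2l1 (chr16:36156711-36156810, plus strand): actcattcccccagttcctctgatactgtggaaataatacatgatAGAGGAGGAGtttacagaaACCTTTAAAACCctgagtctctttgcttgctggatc

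The word ACCTTTAAAACC, searched on both strands of the 250 bases before the start, occurred in 11 of 32851 promoters (0.0335%), and 9 of those 11 belong to genes on chromosome 16. These include Csta3 and Cstdc4 beside the members. It was not found before the start of Cst3, nor before that of Csta2. Its first base lay 33 bases before the start in Stfa1, 34 in Stfa3, 32 in Stfa2, 36 in Stfa2l1 and 12 in BC100530. The word AGAGGAGGAG occurred in 268 promoters (0.816%). Both words stand in genes that were lower in MDSC cultures (Stfa1, Stfa3, BC100530) and in genes that did not pass the test (Stfa2, Stfa2l1). A match is only a description of the letters in this window.

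Among the upstream sequences other than that of BC100530, Stfa2 and Stfa2l1 were the most alike, at 89.4% identity over 250 bases. The window of BC100530 is shifted, because the shared words lie closer to its annotated start. Such a shift lowers identity in windows of fixed length, so its pairs cannot be ranked against the others. Stfa2 and Stfa2l1 were also the closest in profile across the 6 arrays. The distance between their centred log2 values was 0.14, though the Stfa2l1 probe can read both. Stfa1 was 83.5% identical to Stfa3 (distance 0.47), 81.2% to BC100530 (distance 0.28), 81.0% to Stfa2 (distance 1.32) and 80.9% to Stfa2l1 (distance 1.26). Because of the shift, the order of identity and that of distance were not compared over all pairs. Stfa3 was 80.4% identical to Stfa2 (distance 1.63) and 80.5% to Stfa2l1 (distance 1.59). With the shifted window of BC100530, Stfa3 was 72.3% identical to it (distance 0.58). BC100530 was 71.0% identical to Stfa2 (distance 1.08) and 70.1% to Stfa2l1 (distance 1.03). These are descriptions, with no test.

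A list of other genes named as stefin A-like had 7 on the array, of which 3 were tested. The 7 include 2 untested genes on chromosome 2, outside the stefin A cluster of chromosome 16. The comparison of 6G- BM-MDSC with DCs called 1 as lower and 1 as higher, and that of MDSC (conv.) with DCs called 1 as lower and 0 as higher. 2010005H15Rik (Csta2) was 5.64 and 5.76 in 6G- BM-MDSC, 5.62 and 5.77 in MDSC (conv.), and 6.61 and 6.66 in DCs. It passed as lower than in DCs in both, with a difference of -0.93 for 6G- BM-MDSC (adjusted p = 0.00324) and -0.94 for MDSC (conv.) (adjusted p = 0.00334). It is the gene whose probe shares 25 bases with that of BC100530. Gm5483 (Cstdc4), whose probe shares 22 bases with that of Stfa3, did not follow Stfa3. It was 5.09 and 5.18 in 6G- BM-MDSC, 4.62 and 4.66 in MDSC (conv.), and 4.75 and 4.97 in DCs. The difference from DCs was 0.28 for 6G- BM-MDSC (adjusted p = 0.101) and -0.22 for MDSC (conv.) (adjusted p = 0.181).

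Gm5416 (Csta3) was 0.30 and 0.35 in 6G- BM-MDSC, -0.43 and -0.13 in MDSC (conv.), and -0.51 and -0.55 in DCs. It was higher in 6G- BM-MDSC than in DCs by 0.85 (adjusted p = 0.00788), and by 0.25 in MDSC (conv.), which did not pass (adjusted p = 0.185). Gm5416 and Gm5483 also had the largest differences among stefin A genes between 6G- BM-MDSC and MDSC (conv.), at 0.60 (adjusted p = 0.304) and 0.50 (adjusted p = 0.317). Their arrays did not overlap there, but neither passed the test. The members' own largest difference in that comparison was -0.19.

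The wider chromosome around the cluster was examined within 500 kb on either side. Of 42 tested probes in these flanks, 14 passed as lower and 0 as higher for 6G- BM-MDSC against DCs, with a median difference of -0.28. For MDSC (conv.) against DCs 12 passed as lower and 0 as higher, with a median difference of -0.21. The median over all tested probes was -0.0155 for 6G- BM-MDSC and -0.0127 for MDSC (conv.). For 6G- BM-MDSC 16.2% of all tested probes were called lower and 15% higher than in DCs, and for MDSC (conv.) 14.3% and 13.4%. The flank counts are of probes, and several of these read the same gene. The genes with a probe that passed were Sema5b, Parp14, Dtx3l, Parp9, Fam162a, Cd86, Ildr1, Iqcb1 and Golgb1. Not all of them passed in both comparisons or at every probe. Fam162a passed only at its dimmer probe, in 6G- BM-MDSC, where its brighter probe A_51_P115159 differed by -0.18 (adjusted p = 0.491). Iqcb1 passed only at A_51_P307567, in MDSC (conv.). The Parp9 probe A_55_P2142858 differed by -0.16 in 6G- BM-MDSC and -0.03 in MDSC (conv.) without passing. Cd86, a costimulatory ligand and dendritic cell marker, was lower at the probe A_55_P1971951, with a difference of -0.72 for 6G- BM-MDSC (adjusted p = 0.00811) and -0.75 for MDSC (conv.) (adjusted p = 0.00759). Parp9 and Dtx3l, interferon-responsive partners in ADP-ribosylation and ubiquitination, were lower in both at their brightest probes. Between 6G- BM-MDSC and MDSC (conv.) 0 of the 42 passed.

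**Figure D3:**
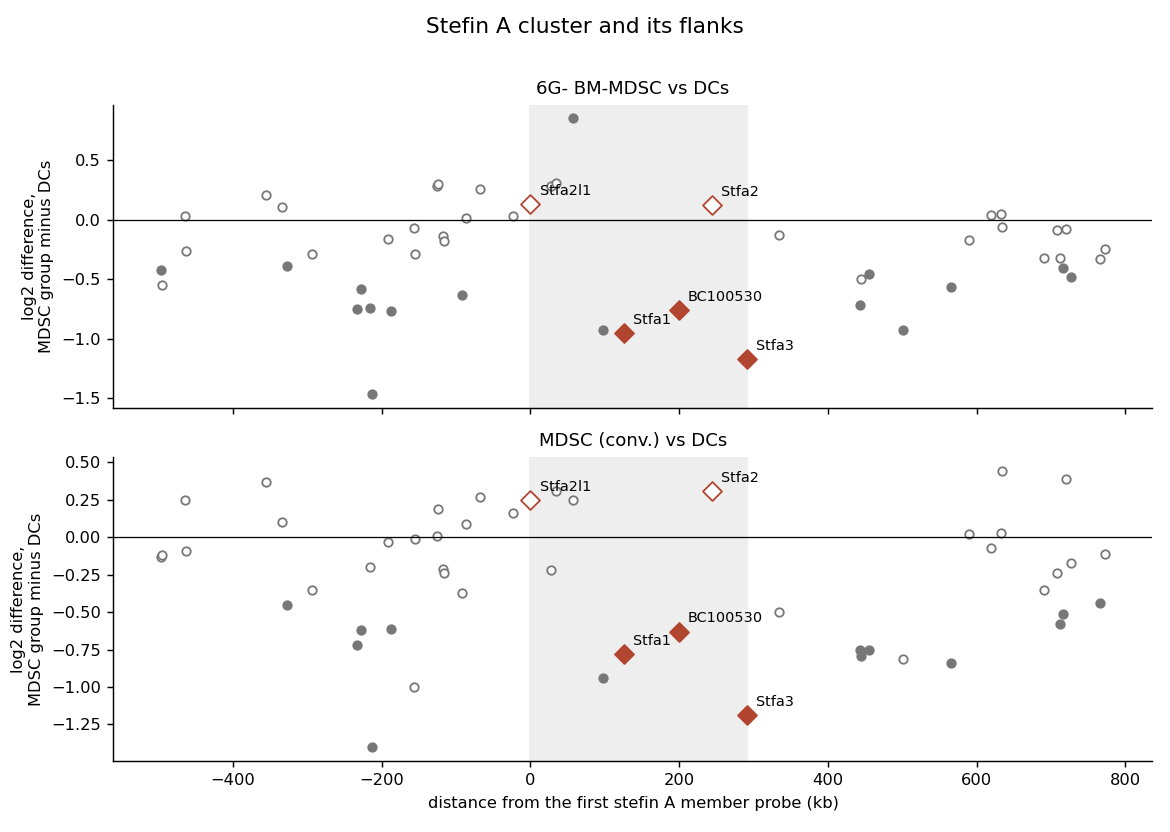
Log2 difference of an MDSC culture minus DCs (y axis) for tested probes along chromosome 16, by distance in kb from the first stefin A member probe (x axis). Diamonds are member probes, circles other probes, and filled symbols passed the test. The shaded stretch is the 290.6 kb that the member probes span. Stfa1, Stfa3 and BC100530 lie below 0 and Stfa2 and Stfa2l1 above it in both panels.

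Secreted and plasma cystatins beyond the members were mostly not detected. Of 14 such genes on the array, 8 were not well above background on any array and 3 were tested. Cst7, which encodes cystatin F, an inhibitor that acts in lysosomes of immune cells, was 2.48 and 2.53 in 6G- BM-MDSC, 2.83 and 2.75 in MDSC (conv.), and 0.55 and 0.42 in DCs. Cst7 was higher by 2.02 in 6G- BM-MDSC (SE 0.09, adjusted p = 3.6e-04) and by 2.30 in MDSC (conv.) (SE 0.09, adjusted p = 3.3e-04) than in DCs, a larger difference than that of any member. Cst6, encoding cystatin E/M, was lower than in DCs, with a difference of -0.83 for 6G- BM-MDSC (adjusted p = 0.026) and -0.79 for MDSC (conv.) (adjusted p = 0.0321). Hrg, a plasma protein with cystatin-like domains, was lower in 6G- BM-MDSC (-0.52, adjusted p = 0.0344) and differed by -0.36 in MDSC (conv.) without passing (adjusted p = 0.0919).

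Camp and Ngp encode neutrophil granule proteins with a cystatin-like fold. Camp was higher by 4.35 in 6G- BM-MDSC and 4.55 in MDSC (conv.) than in DCs (adjusted p = 2.34e-04 and 2.33e-04). Ngp was higher by 3.11 in 6G- BM-MDSC and 3.57 in MDSC (conv.) (adjusted p = 2.34e-04 and 2.3e-04). The summed level of all 12 neutrophil markers moved with these genes, at 10.21 to 10.41 in 6G- BM-MDSC, 10.43 to 10.45 in MDSC (conv.) and 9.21 to 9.22 in DCs, and no marker was below background on every array. Its part in the result was not tested.

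The proteases that stefins and cystatins inhibit were measured on the same arrays. Of 11 genes on a list of cysteine cathepsins and legumain, 4 were lower and 0 higher in each MDSC culture than in DCs, with a median difference of -0.37 for 6G- BM-MDSC and -0.48 for MDSC (conv.). The share of all tested probes called was 16.2% lower and 15% higher for 6G- BM-MDSC, and 14.3% and 13.4% for MDSC (conv.). In 6G- BM-MDSC the lower genes were Ctss (-0.60, adjusted p = 0.0425), Ctsh (-0.60, adjusted p = 0.013), Ctsf (-0.70, adjusted p = 0.0161) and Lgmn (-0.74, adjusted p = 0.0186). Cathepsin S trims the invariant chain during antigen presentation, and legumain is an asparagine-specific protease of the same compartment. In MDSC (conv.) they were Ctsh (-0.58, adjusted p = 0.0156), Ctsf (-0.82, adjusted p = 0.0111), Ctso (-0.55, adjusted p = 0.025) and Lgmn (-0.83, adjusted p = 0.0146).

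Ctss in MDSC (conv.) differed by -0.48 (adjusted p = 0.0806), and Ctso in 6G- BM-MDSC by -0.37 (adjusted p = 0.0666). The abundant lysosomal enzyme gene Ctsb differed by -0.02 and -0.05, and Ctsz by 0.08 and -0.04, for 6G- BM-MDSC and MDSC (conv.) against DCs. Ctsc, the protease that activates granule serine proteases, differed by 0.62 in 6G- BM-MDSC (adjusted p = 0.116) and 0.53 in MDSC (conv.) (adjusted p = 0.171). Ctsk and Ctsw did not pass either (differences of -0.48 and 0.08 in 6G- BM-MDSC, -0.60 and 0.06 in MDSC (conv.)). The probes of Ctsl disagreed. The brightest differed by -0.08 in 6G- BM-MDSC and -0.17 in MDSC (conv.), while the dimmer A_66_P130532 was higher by 0.97 in 6G- BM-MDSC (adjusted p = 0.00236) and 0.92 in MDSC (conv.) (adjusted p = 0.00286). Between 6G- BM-MDSC and MDSC (conv.) 0 of the 11 genes passed, with differences between -0.12 and 0.19.

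**Figure D4:**
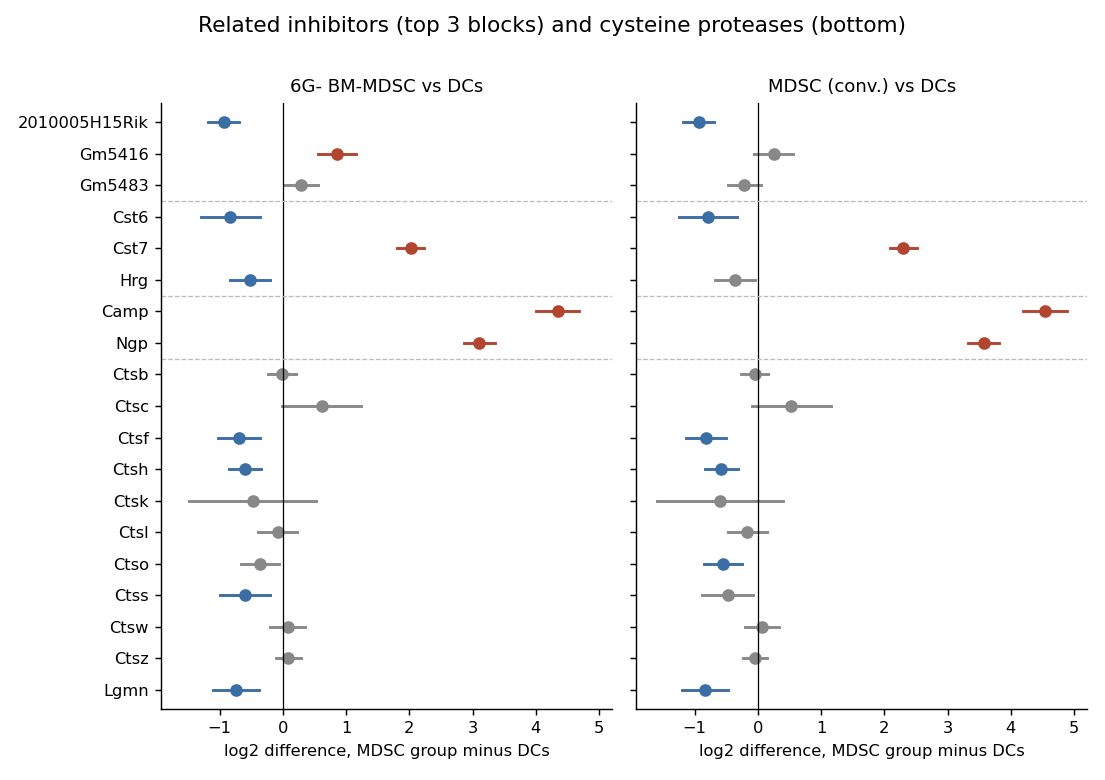
Log2 difference of an MDSC culture minus DCs (x axis) for the brightest probe of each related gene, with 95% intervals from limma. Dashed lines separate other stefin A genes, other cystatins, the granule proteins Camp and Ngp, and the cysteine proteases. Red marks probes higher, blue lower and grey not passing at an adjusted p under 0.05. Camp, Ngp and Cst7 lie farthest to the right in both panels.

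The summed levels of dendritic cell and macrophage markers were lower in both MDSC cultures than in DCs. The summed level of 11 dendritic cell markers was 9.85 to 9.98 in 6G- BM-MDSC, 9.92 to 9.93 in MDSC (conv.) and 10.70 to 10.74 in DCs. That of 9 macrophage markers was 6.78 to 6.83 in 6G- BM-MDSC, 6.75 to 6.84 in MDSC (conv.) and 7.45 to 7.61 in DCs, and 7 of the 9 passed as lower in each MDSC culture. No marker of either list was below background on every array. Their part in the result was not tested.

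Finally, the genes whose profile over the 6 arrays was most like that of a member were listed, out of 14635 named genes, by the distance between centred log2 values. For BC100530, the brightest stefin A member, they were Igsf8, Gabarapl1, Parp9, Zfp318 and Trit1, at distances of 0.03 to 0.09. Igsf8 differed from DCs by -0.75 in 6G- BM-MDSC and -0.63 in MDSC (conv.), where BC100530 differed by -0.76 and -0.63. Parp9 lies in the flank of the stefin A cluster. For Cstb they were Zfp330, Tbc1d20, Map1lc3b, Rbfa and Timm17a, at 0.05 to 0.07. For the Cst3 probe A_66_P116390 they were Snhg15, Zfp493, Lrp6, Fxr1 and Rpl26, at 0.04 to 0.08. Distances this small are a description over 6 points that fall into 3 pairs of replicates.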

How the data were processed

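The deposited files were the scanner output of 6 one-colour Agilent arrays, with intensity values that the authors' Feature Extraction software (10.7.3.1 in the file headers, 10.5.1.1 in the submitters' processing notes) had background-corrected. A deposited value table of the same arrays differed from them by at most 0.005 intensity units, and was used as an alternative. Probe positions are those of the headers' build, mm9. Marked outlier spots (103 to 146 an array) and control spots were left out, spots of 1 probe were averaged, and log2 intensity was taken relative to the 75th percentile of each array. A probe was tested if some group had it well above background on each of its arrays (33484 of 56605), with limma 3.58.1 in R 4.3.3, fitting the 3 groups to all 6 arrays, with Benjamini-Hochberg adjustment over all tested probes. The script was tested on simulated data. Array accessions gave current symbols for 32994 probes (58.3%), of which 1535 were renamed, and sequences other than probes are from RefSeq (GRCm38.p6). The members and gene lists were chosen with earlier results of these data known. The text names every member probe, every tested gene of the lists of related inhibitors and proteases by its brightest probe (all probes where they disagree), the 5 nearest profiles of 3 members, and the flanking genes that passed. The list of other stefin A genes includes 2 untested genes on chromosome 2, which lie outside the stefin A cluster. Alternatives were other background corrections, scalings, filters, fits and tests, and each array left out in turn.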

Additional observations from a re-analysis of the deposited data

How the results depend on the processing

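Over 8 probes, 3 comparisons and up to 18 alternatives, 393 single-probe results kept their direction and side of the threshold, 22 lost the call, 4 gained one and 10 changed sign. Except for the second Cst3 probe, the changes of sign were of differences near 0. Between 6G- BM-MDSC and MDSC (conv.), the Cst3 probe A_66_P116390 differed by -0.01 with normexp correction and the probe A_51_P332201 by 0.01 with quantile normalization or median scaling. With 1 array left out, that comparison ran between -0.04 and 0.11 for A_66_P116390, -0.13 and 0.02 for A_51_P332201, and -0.01 and 0.05 for Stfa3. Against DCs, 6G- BM-MDSC ran between -0.03 and 0.27 for Stfa2 and -0.41 and 0.60 for A_51_P332201, and MDSC (conv.) between -0.36 and 0.65 for A_51_P332201, where leaving out DCs replicate 1 gave the lowest values. The cause was not tested. The calls of Stfa1, Stfa3 and BC100530 against DCs were lost with the methods' test (adjusted p between 0.0594 and 0.112), which uses each probe's own variance from 2 arrays a group, and under no other single-probe alternative. Of these, Stfa3 alone reached 2-fold.

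Of the stefin and cystatin probes, 5 were called in each comparison with DCs, 0 with the methods' test and 1 when at least 2-fold was required. Leaving out 1 array gave 3 to 5 for MDSC (conv.) against DCs, 4 to 5 for 6G- BM-MDSC against DCs and 0 to 0 between the MDSC cultures. Over all probes, 6G- BM-MDSC against MDSC (conv.) gave 3 calls, 56 with normexp, 86 with an intensity-dependent prior variance, 0 without a filter, with the strict filter or with the methods' test, and 0 to 4 with 1 array left out. MDSC (conv.) against DCs gave 9281 calls, 17710 without a filter, 2 with the methods' test, 2841 at 2-fold and 3835 to 7723 with 1 array left out. 6G- BM-MDSC against DCs gave 10425 (5016 higher, 5409 lower), 18263 without a filter, 109 with the methods' test, 3109 at 2-fold and 5098 to 8713 with 1 array left out. Scaling to the median made that split 6258 higher and 3898 lower.

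Arrays share replicate numbers across groups, but same-numbered arrays deviated together only weakly (correlations of 0.103, 0.11 and 0.047), so the numbers were not taken as pairs. With the replicate block, 0, 5 and 5 stefin and cystatin probes were called for 6G- BM-MDSC against MDSC (conv.), MDSC (conv.) against DCs and 6G- BM-MDSC against DCs, and 2, 8556 and 9779 of all probes. The block changed no call of a member. A probe not well above background, such as that of BC117090, gives no level here.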
